A study of Caenorhabditis elegans with 2 samples.

Results

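The genes described here are the small nuclear RNA (snRNA) and small nucleolar RNA (snoRNA) genes of Caenorhabditis elegans, read out by where the tagged protein K11D2.4 gave chromatin immunoprecipitation peaks beside them. They are the genes of biotype snRNA or snoRNA in the Ensembl annotation of WBcel235 on the 6 nuclear chromosomes, 475 of 46890 annotated genes, with 129 of the first class and 346 of the second. Each was given the highest signal among peak summits lying within 200 bp of it, so neither the biotype nor the position of a gene rested on the peaks.

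The animals were whole young adults of 1 line, RW12320, which carries an insertion made with CRISPR that adds TY1, EGFP and 3xFLAG tags to K11D2.4 (allele st12320). They were 62 hours old and had been synchronised by bleaching and starvation as first-stage larvae, the chromatin was sonicated to 200 to 800 bp, and the pull-down used an antibody against GFP. The group held 2 biological replicates. Untagged animals and input DNA were not analysed here. Whole animals mix tissues, so a peak does not say in which cells the protein was bound.

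snRNAs are the RNA cores of the spliceosome, and in nematodes a further group, the spliced leader RNAs, donates its first exon to the 5′ ends of other messages by trans-splicing. SL1 RNA serves most trans-spliced genes and SL2 RNA the downstream genes of operons, and the SmY RNAs are small nuclear RNAs of nematodes that associate with the spliced leader particles. snoRNAs guide methylation or pseudouridylation of ribosomal and other RNAs. Many of them are cut out of introns of host genes, while others are transcribed from promoters of their own. Promoters of snRNA genes carry an upstream element bound by the snRNA-activating complex, and tRNA genes carry 2 internal elements, box A and box B, bound by the polymerase III factor TFIIIC.

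Five-prime flanks of 7 genes with a main summit are printed first because the peaks and the letters in these flanks went together in the data below. The letters were chosen after flanks of genes with main summits had been looked at, so this is no independent check. Each flank runs from 100 bases before the annotated 5′ end to 20 bases inside the gene, on the strand of the gene. All were read from the RefSeq genome of the WBcel235 build. In the first 4, capitals mark a word pair, CNCG and, after 5 bases of any kind, TGTCNG. The first is the flank of an SL2 gene at chrII:5844765-5844884 on the plus strand, and the next an SL2 gene at chrIII:12250365-12250484 on the plus strand. The third belongs to sup-6, a U1 snRNA gene, at chrII:12944948-12945067 on the minus strand. The fourth belongs to the snoRNA gene ZK994.7 at chrV:8500479-8500598 on the plus strand.
sls-2.1: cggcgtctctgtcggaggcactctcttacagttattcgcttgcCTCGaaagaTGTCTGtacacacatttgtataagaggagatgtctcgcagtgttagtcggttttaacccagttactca
sls-2.8: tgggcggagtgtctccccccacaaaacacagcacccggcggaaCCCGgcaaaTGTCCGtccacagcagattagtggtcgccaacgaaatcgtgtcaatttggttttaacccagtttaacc
sup-6: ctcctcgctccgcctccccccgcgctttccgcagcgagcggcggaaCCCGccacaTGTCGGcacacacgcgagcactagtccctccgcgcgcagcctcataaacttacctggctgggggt
ZK994.7: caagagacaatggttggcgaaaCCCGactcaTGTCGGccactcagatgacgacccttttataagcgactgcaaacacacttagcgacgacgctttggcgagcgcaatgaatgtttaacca

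In the next 3 flanks, all of snoRNA genes, capitals mark a match to TGGNNNA and a downstream match to GTTCNANNC, called box A and box B here after the tRNA gene elements they resemble. They lie at chrV:12303608-12303727 on the plus strand, at chrV:11314158-11314277 on the plus strand and at chrII:11960798-11960917 on the plus strand.
C51F7.3: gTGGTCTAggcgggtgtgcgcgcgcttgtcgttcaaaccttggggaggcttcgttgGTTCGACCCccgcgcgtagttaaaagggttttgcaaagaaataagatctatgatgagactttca
T03F7.8: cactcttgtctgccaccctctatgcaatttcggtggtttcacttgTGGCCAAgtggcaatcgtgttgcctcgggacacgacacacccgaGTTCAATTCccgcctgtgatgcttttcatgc
W03C9.9: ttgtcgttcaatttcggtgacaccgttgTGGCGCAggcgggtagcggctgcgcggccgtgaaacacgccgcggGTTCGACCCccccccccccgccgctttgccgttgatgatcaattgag

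Peaks came from the authors' lists, and the values below are their signal values, peak heights on a scale that no source used here states. The main list is the conservative thresholded list from the pooled replicates, with 1927 peaks whose signals ran from 2.24 to 1396 with a median of 101. The number of reads behind a peak is unknown, and a signal was compared only within its own list. Intervals on shares are exact Clopper-Pearson 95% intervals and cover counting error only.

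Of the 475 genes, 77 had a main summit within 200 bp, which is 16.2% with an interval of 13.0% to 19.8%. Over all annotated genes the share was 3.66%, and over windows of 120 bp tiled across the genome it was 0.943%. The 77 genes shared 75 distinct summits, because C51F7.3 and C51F7.4 lie beside 1 summit and the miRNA-named gene mir-1831 lies inside sup-39. The snRNA class held 20 of the 77, or 15.5% of its 129 genes (9.73% to 22.9%), and the snoRNA class held 57, or 16.5% of its 346 genes (12.7% to 20.8%). The 2 classes thus had shares that differed by less than their counting error. Among other small RNA classes, 155 of 612 tRNA genes had a main summit, 25.3% (21.9% to 29.0%), against 12 of 261 miRNA genes, 20 of 15363 piRNA genes and 0 of 20 rRNA genes.

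In the replicates' own thresholded lists the classes were also above the background. Replicate 1 had a summit beside 12 snRNA genes (9.30%) and 29 snoRNA genes (8.38%), where 2.00% of all genes had one. Replicate 2 had a summit beside 15 snRNA genes (11.6%) and 45 snoRNA genes (13.0%), where 2.33% of all genes had one. In the much longer ranked lists the margin over all genes was small. There, replicate 1 listed a summit beside 44.2% of snRNA and 52.3% of snoRNA genes against 37.6% of all genes, and replicate 2 beside 49.6% and 52.9% against 37.9%. All genes include 15363 piRNA genes, of which 5.52% and 4.50% were listed in replicates 1 and 2. Of protein-coding genes 60.9% and 61.6% were listed, so both member classes were below them. A ranked entry alone was therefore near the background and is used below for signals, not as a call.

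The spliced leader genes of the SL2 kind gave the highest signals. Of the 18 SL2 genes 7 had a main summit, 38.9% with an interval of 17.3% to 64.3%. The highest was sls-2.1, with a main signal of 608, rank 28 in the main list, and signals of 332 and 276 in the ranked lists of replicates 1 and 2. Next came sls-2.4 with 406 in the main list, 205 in replicate 1 and 170.5 in replicate 2. Both lie between genes, and both were above the other snRNA genes in both replicates.

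The pair sls-2.2 and sls-2.3 lie on opposite strands of chromosome II, with main signals of 329.7 and 114 and each summit 2 bp before the gene's 5′ end. In the replicates sls-2.2 had 181 and 137 and sls-2.3 had 53.5 and 62.8. The gene sls-2.8 had a main signal of 207, with 107 and 96.1 in the replicates. For sls-2.9 the main signal was 159, with 89.6 and 71.9, and its summit also lay within 200 bp of a tRNA gene. The one intronic SL2 gene among the 7, sls-2.15, was the lowest at 80.8, with 41.4 and 37.7, and its summit lay 190 bp after the 5′ end, past the end of the gene.

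Of the 11 other SL2 genes, 4 were in the ranked list of replicate 1, with signals of 28.6 to 39.6, and 9 in that of replicate 2, with signals of 8.98 to 44.1. In replicate 1 these did not overlap the 7 genes with a main summit, whose lowest was 41.4. In replicate 2 they did, since sls-2.14 at 44.1 was above sls-2.15 at 37.7. The main list comes from these replicates pooled, so lower signals in genes outside it follow in part from that selection. The SL2 genes thus spread from near the top of the main list to no listed peak in either replicate, the case of sls-2.6 and sls-2.11.

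No peak of any list used here lay within 200 bp of the 12 SL1 genes, which are all on chromosome V. The count of 0 of 12 has an interval up to 26.5%. Of these genes, 10 have the same sequence letter for letter, so short reads from one copy match the others, and whether reads could be placed there was not tested.

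**Figure D1:**
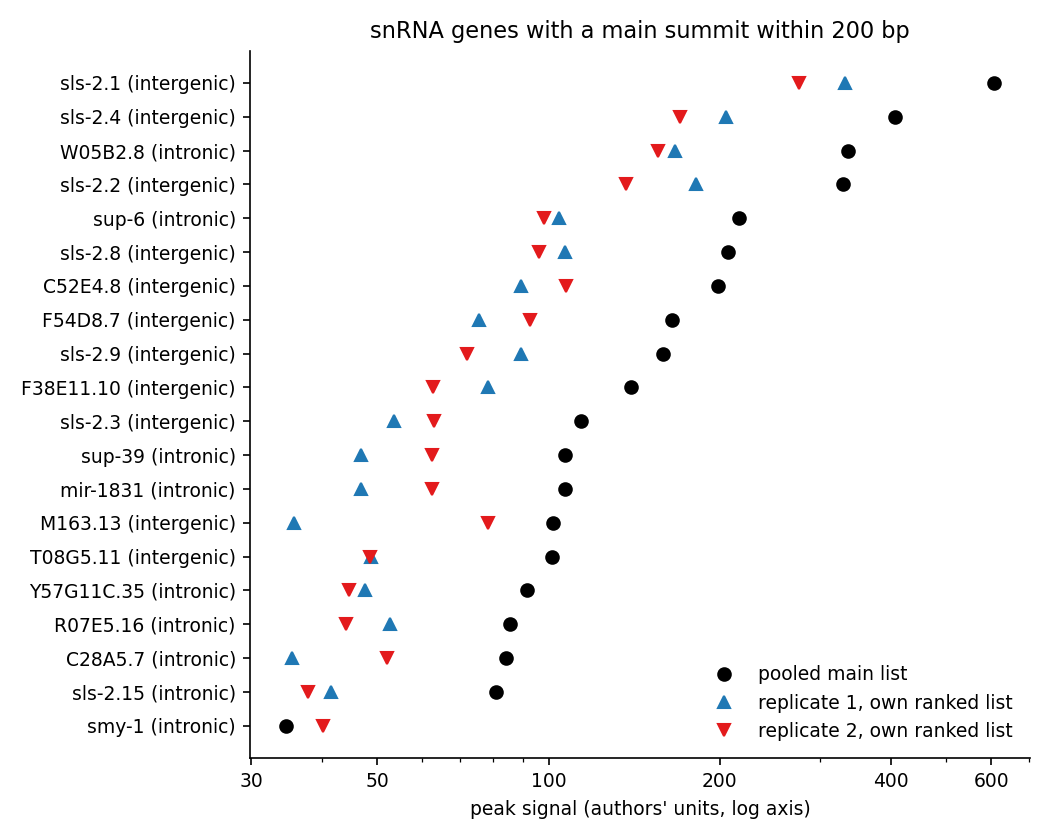
Peak signal of the 20 snRNA genes with a main summit within 200 bp, on a log axis, in the pooled main list (circles) and in the ranked lists of replicate 1 (triangles up) and replicate 2 (triangles down), with the place of each gene in brackets. The SL2 genes sls-2.1 and sls-2.4 are highest in all 3 lists, and smy-1 is lowest in the main list at 34.5 and has no entry in the ranked list of replicate 1.

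Among the spliceosomal snRNA genes, no main signal reached those of sls-2.1 and sls-2.4, while W05B2.8 and sup-6 were within the range of the other SL2 genes or just above it. Families were drawn by sequence, joining genes at 70% identity or more, and are called by the member with the highest signal, since the annotation used gives most of these genes no U number. The family of sup-6 and sup-39, both U1 genes known from suppressor mutations, has 13 members, and 3 had a main summit. The signal was 216 at sup-6, with 104 and 98.2 in the replicates. At sup-39 it was 107, with 46.8 and 62.3, and at T08G5.11 it was 101, with 48.8 and 48.6. In these 3 genes the summit lay inside the gene, 112, 77 and 73 bp after the 5′ end, unlike the upstream summits of most snoRNA genes below.

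The largest snRNA family, with 24 genes but 9 distinct sequences, had 4 genes with a main summit. W05B2.8, in an intron of dhc-4, had 336, with 167 and 156 in the replicates. F54D8.7 had 165, R07E5.16 had 85.5 and C28A5.7 had 84.2, with replicate signals of 75.4 and 92.9, of 52.5 and 44.1 and of 35.3 and 52.0. The first of these stood apart from the other 3 in both replicates. One gene in each of 3 further families had a main summit. They were C52E4.8 with 199, F38E11.10 with 139.6 and Y57G11C.35 with 91.6, the last past the gene's 3′ end. The peak at C52E4.8 lies 354 bp before the start of snr-4, which encodes the Sm protein D2, so it counts for both genes. M163.13, with no relative among the snRNA genes at this identity, had 102, but 35.6 in replicate 1 and 78.3 in replicate 2.

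The 12 SmY genes, 10 annotated as snRNA and 2 as snoRNA, had 2 main summits. Those at smy-1 (34.5) and smy-2 (73.7) lie downstream of these genes in the same host, C33A12.3, 354 and 143 bp before its nearest start, and C33A12.3 counts as having a promoter summit. The summit counted for smy-1 also lies within 200 bp before the 5′ end of smy-2, which was given the higher of the 2. The SmY summits were thus the 2 lowest of the intronic genes in the main list. In all, 9 of 19 snRNA sequence families, single genes included, had a gene with a main summit. This count takes mir-1831 as a family of its own, although it shares the summit of sup-39. It also includes the smy-1 family, through the downstream summit described above only.

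Among snoRNA genes, main signals ran from 6.55 at C26C6.13 to 350.3 at F59C6.15, with a median of 118, while the snRNA median was 127. F59C6.15 had 197 and 155 in the replicates and ZK994.7, which lies in an intron of the peroxidasin gene pxn-1, had a main signal of 345 with 164 and 176. The summit shared by C51F7.3 and C51F7.4, inside frm-7, had 278, with 134 and 157. Y53F4B.47 followed with 221, with 112 and 106. These 4 summits were above the other snoRNA summits in replicate 1 and, apart from W03C9.9, in replicate 2.

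Below them T03F7.8 had a main signal of 205, W03C9.9 196, F07A11.15 194, M7.15 189.7, F39B2.14 177, T06C12.16 171, Y43F8C.22 167 and W06H8.17 160.1. The next 7 by main signal, F30H5.4, F11A10.9, D2021.6, C02F5.15, F55A11.10, F01D5.12 and F25H2.15, ran from 151 to 135. Of these named genes, F07A11.15 and F39B2.14 overlap exons and their summits lie 35 bp after a start of din-1 and 49 bp before one of tmem-107. Those 2 summits cannot be told apart from peaks at the protein-coding start. Of the 57 snoRNA genes with a main summit, 2 had it nearer a protein-coding start than their own 5′ end. Of these, 1 overlaps an exon and 1 is intronic, so the limit is not confined to exon-overlapping genes. At the low end F37F2.4 had 31.7 and no entry in either ranked list, and C26C6.13 had an entry in replicate 2, at 21.9.

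The snoRNA genes are mostly unlike each other, and 33 of 346 had a relative at 70% identity. The largest such family, F59C6.15 and 4 more genes, had 3 with a main summit. F25H2.15 had 135 and Y67A10A.14 had 105, and their summits and that of F59C6.15 lay 60, 52 and 71 bp before the 5′ ends. The other 2, T19C4.12 and F43A11.8, had 1 ranked entry each, 20.9 in replicate 2 and 33.1 in replicate 1.

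Place in the genome was set by whether a gene lies inside a protein-coding gene on the same strand without touching an exon (intronic), inside one on the other strand (antisense), across an exon, or elsewhere (intergenic). Of the 145 intronic snoRNA genes 19 had a main summit, 13.1% (8.08% to 19.7%), and of the 124 intergenic ones 27, 21.8% (14.9% to 30.1%). The intervals of these shares overlap. Antisense snoRNA genes had 7 of 27 and those across exons 4 of 50. Intronic snRNA genes had 9 of 35, 25.7% (12.5% to 43.3%), intergenic ones 11 of 62, 17.7% (9.20% to 29.5%), and the 20 antisense and 12 exon-overlapping snRNA genes had 0. For snRNA genes that order turned in each replicate's own thresholded list, with 3 intronic (8.57%) and 9 intergenic genes (14.5%) in replicate 1 and 5 (14.3%) and 10 (16.1%) in replicate 2, so no order of the 2 places is read from these counts.

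Most summits of intronic snoRNA genes lay far from the start of the host gene. A host with a main summit in its promoter, from 1000 bp before to 200 bp after a start, held 39 intronic snoRNA genes, of which 4 had a main summit (10.3%), and hosts without one held 106, of which 15 had one (14.2%). The 19 summits lay 129 to 16027 bp from the nearest start of the host, with a median of 1266 bp, and 16 lay more than 500 bp away. For M106.6 in mix-1, a condensin subunit gene, that distance was 16027 bp. Of the 19 summits, 1 lay nearer a protein-coding start than the 5′ end of its snoRNA gene. Intronic snRNA summits lay 354 to 19695 bp from the host start, the farthest that of W05B2.8.

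Ribosomal protein genes, classic hosts of snoRNAs, held 23 intronic snoRNA genes in 15 hosts. None of the 23 had a main summit (0%, interval up to 14.8%) although 14 of them sit in 9 hosts with a main summit in the promoter. Of the 122 intronic snoRNA genes in other hosts 19 had one, 15.6% (9.64% to 23.2%), and over all genes the share was 3.66%. Among other hosts' snoRNA genes whose flanks hold neither of the patterns described below, as in all 23, the count was 5 of 100 (1.64% to 11.3%). With the distance limit at 500 bp 4 of the 23 and 24 of the 122 had a main summit, so the count of 0 holds for the shorter distance. In the ranked lists 17 of the 23 were listed in replicate 1, with signals of 8.12 to 29.1, and 14 in replicate 2, with 7.11 to 28.1. Those values were below the lowest ranked signal of any snoRNA gene with a main summit in replicate 1, 34.7, and overlapped it in replicate 2, where that lowest was 21.9. Main summits come from the same replicates pooled, so lower values in genes without a main summit follow in part from that selection. The 4 snoRNA genes in introns of nol-56, which encodes a core snoRNP protein, had no main summit. Beside the 3.66% over all genes, that count is not read as a result about this host.

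**Figure D2:**
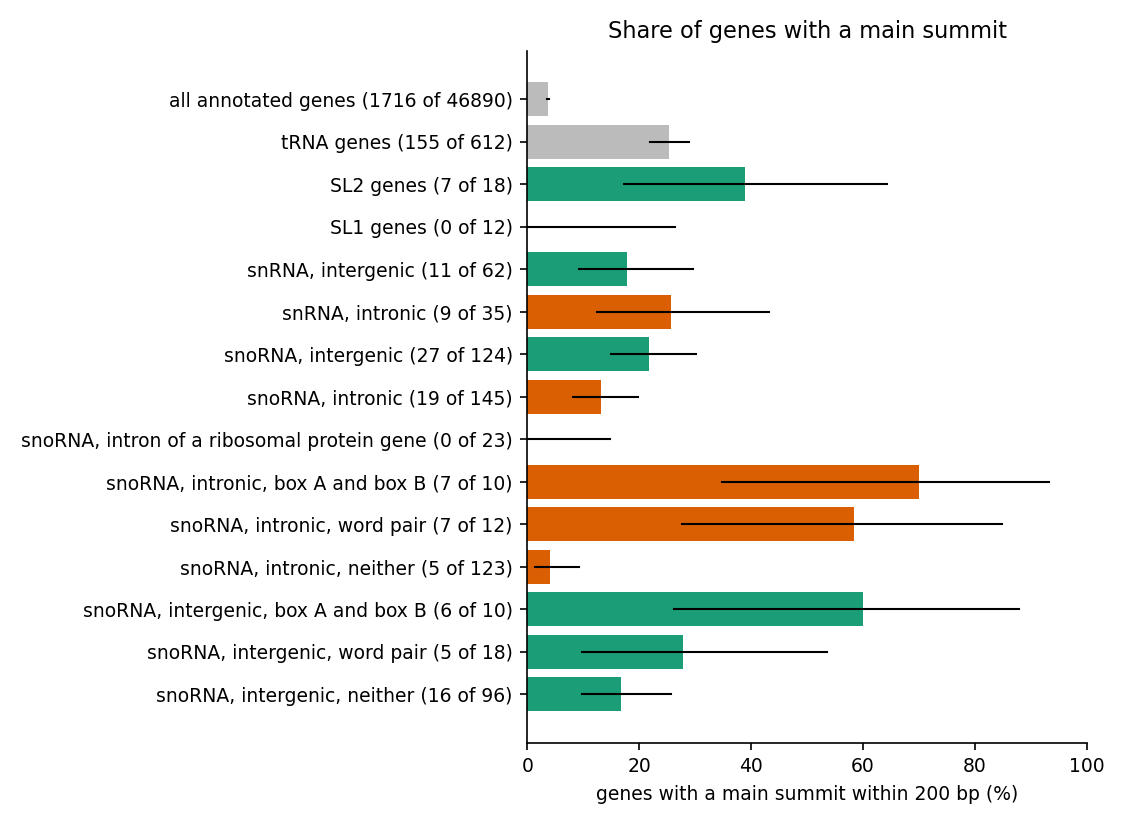
Share of genes with a main summit within 200 bp, in percent, with exact Clopper-Pearson 95% intervals (lines) and counts beside each name, by class, place and letters in the 5′ flank. Orange bars are intronic genes, green bars intergenic genes (the SL2 bar also includes genes inside introns, on either strand), and grey bars the background classes. Intronic snoRNA genes with box A and box B or with the word pair stand at 70% and 58.3%, and those with neither at 4.07%, near the 3.66% of all genes.

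Summits of snoRNA genes lay mostly just upstream. Relative to the annotated 5′ end, along the strand of the gene, the median summit of the 57 genes was at -34 bp, with quartiles at -52 and 0. It was upstream in 42 of them, in the gene body in 13 and downstream in 2, and 36 were within 100 bp before the 5′ end. Intronic snoRNA genes had 15 of 19 upstream with a median of -24 bp, and intergenic ones 22 of 27 with a median of -51 bp. For snRNA genes the 20 summits split into 9 upstream, 7 in the body and 4 downstream, with a median of 6 bp, at -39 bp for the 11 intergenic and 77 bp for the 9 intronic genes. The snRNA median was -13.5 bp in replicate 1's own list and -22 bp in replicate 2's, so its side of the 5′ end was not settled.

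**Figure D3:**
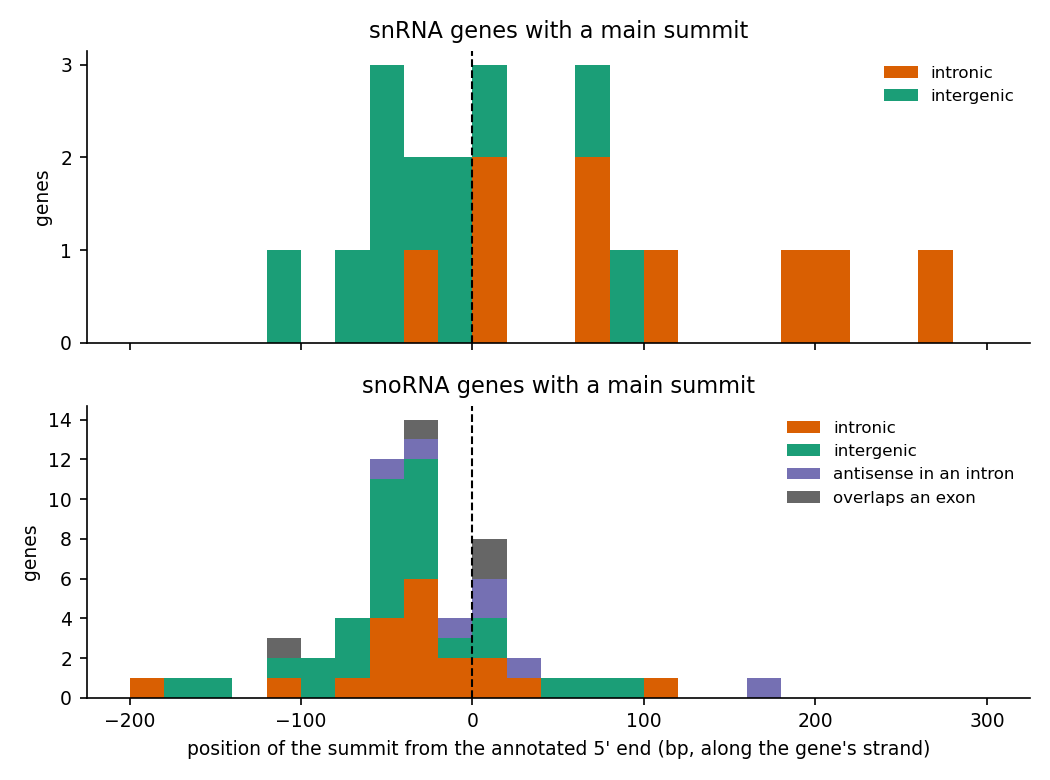
Number of genes by the position of the main summit from the annotated 5′ end, in bp along the strand of the gene and in bins of 20 bp, for snRNA genes (top) and snoRNA genes (bottom), coloured by place. The dashed line is the 5′ end. The snoRNA summits gather just before it, with a median of -34 bp, for intronic and intergenic genes alike, while intronic snRNA summits lie mostly after it.

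The flanks split the snoRNA genes further. The letters were chosen after the flanks of genes with main summits had been looked at, so the counts that follow describe these genes and are no independent check. A gene was put in the box class when its flank of 120 bases, on its own strand, held TGGNNNA and GTTCNANNC with starts 15 to 75 bases apart, and otherwise in the pair class when it held the word pair defined above. Each was rare elsewhere, in 0.110% of the same flanks of 19973 protein-coding genes for the 2 boxes and also 0.110% for the word pair, while box B alone was in 1.79%. No match says that a factor binds there, and a gene without a match may hold a variant.

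Of 26 snoRNA genes in the box class 17 had a main summit, 65.4% (44.3% to 82.8%). Of 35 in the pair class 13 had one, 37.1% (21.5% to 55.1%), and of the 285 with neither 27, 9.47% (6.34% to 13.5%). The same order held in each replicate's own thresholded list, with 7, 6 and 16 genes in replicate 1 and 13, 10 and 22 in replicate 2 for the 3 classes. As shares these were 26.9%, 17.1% and 5.61% in replicate 1 and 50%, 28.6% and 7.72% in replicate 2. The main list pools these same replicates, so the repeated order is no separate check. Heights did not separate the classes, for the main signals of the box class ran from 76.4 to 278 with a median of 116, those of the pair class from 73.7 to 350.3 with a median of 127, and those with neither had a median of 130.3.

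Among intronic snoRNA genes the split was widest. Of 10 intronic genes in the box class 7 had a main summit and of 12 in the pair class 7, against 5 of 123 with neither, 4.07% (1.33% to 9.23%). All 23 genes in ribosomal protein introns had neither. Of the intergenic snoRNA genes 6 of 10 in the box class, 5 of 18 in the pair class and 16 of 96 with neither had one, the last 16.7% (9.84% to 25.6%).

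The word pair sat in a narrow range and the boxes in a wider one. The word pair began 52 to 78 bases before the 5′ end in snoRNA genes, with a median of 57, and 53 to 64 bases before it in snRNA genes, with a median of 56. Box A began at -99 to -46, with a median of -59, and box B at -44 to -5, with a median of -14. These are counted in bases from the 5′ end of the snoRNA gene, so both marked boxes began in front of the annotated RNA. Only the first 20 bases of the gene were searched, so boxes deeper inside it, as in a tRNA gene, could not be found. Where several TGGNNNA matches fell in the allowed range, the most upstream was taken, which widens the range of box A. Main summits lay a median of 34 bp after the start of box A, 11 bp before the start of box B, and 32 bp after the start of the word pair in snoRNA genes. In the 10 snRNA genes with the pair and a main summit the summit lay farther from it, a median of 128.5 bp after its start, with quartiles at 14.5 and 144 bp. Both boxes of C51F7.3 fall inside the neighbouring C51F7.4, 95 bp long and on the same strand, so their shared summit cannot be given to one of them.

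**Figure D4:**
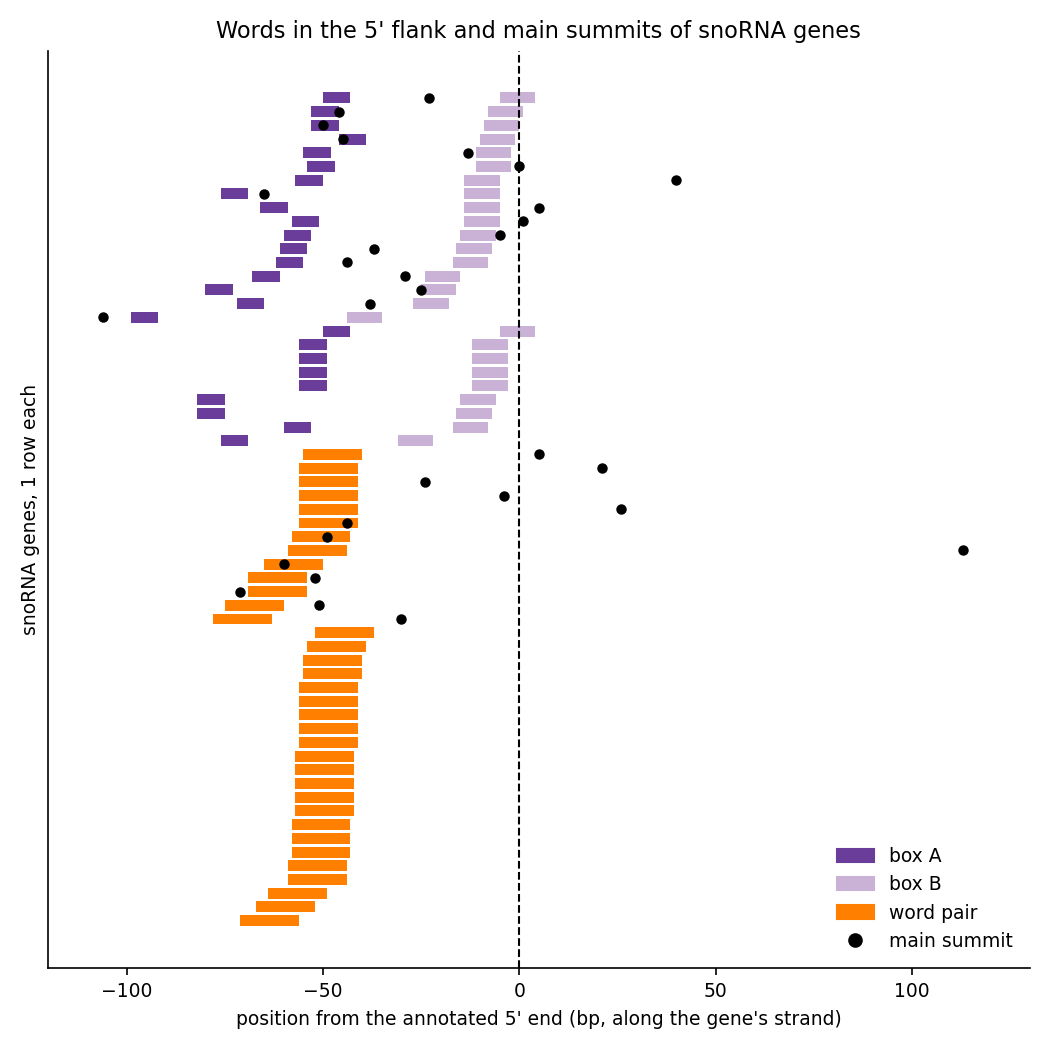
Each row is 1 snoRNA gene with box A and box B (purple, top) or the word pair (orange, bottom) in its 5′ flank, with the position in bp from the annotated 5′ end (dashed line) along the strand of the gene and black dots for main summits. Genes with a main summit are above those without in each block, and 17 of 26 and 13 of 35 rows carry a dot, most of them between the first marked letter and the 5′ end.

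Some genes of the box class without a main summit were in the ranked lists. Of these 9 genes, 5 were in the ranked list of replicate 1, at 12.6 to 74.8, and 5 in that of replicate 2, at 17.7 to 43.5. In replicates 1 and 2, 52.3% and 52.9% of all snoRNA genes and 37.6% and 37.9% of all genes were listed. The counts of 5 are therefore not read as a result about these genes. T19B4.8 passed the own threshold of replicate 1 at 74.8 and had no entry in replicate 2, and ZK546.18, in an intron of mdt-4, had 45.9 and 41.3. R166.7 lay 272 bp from its nearest main summit, outside the limit of 200 bp.

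No snRNA gene had box A with box B. The word pair was in 35 snRNA flanks, of which 10 had a main summit, 28.6% (14.6% to 46.3%), against 10 of 94 without it, 10.6% (5.22% to 18.7%). Of the 35, 10 are SL1 genes with the identical sequence, and without the SL1 genes the counts were 10 of 25 and 10 of 92. The pair was in 12 genes of the SL2 family, 5 of them with a main summit, in 5 of the sup-6 family, 3 with a main summit, and in 5 of the F38E11.10 family, 0 with one. The members of 1 family share much of their flank, so these are not separate cases. mir-1831 shares the pair and the summit of sup-39.

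Signals of the 2 replicates were related across the genes. Over the 180 members in both ranked lists Spearman's rho was 0.78 and Pearson's r of the log2 signals 0.80, as descriptions over genes that share the 2 libraries. Within the 54 snoRNA genes with a main summit rho was lower, 0.57, and within the 19 such snRNA genes it was 0.82, so the order of snoRNA genes close in signal is loose. The log2 ratio of replicate 1 to replicate 2 had a mean of 0.04 and an SD of 0.61, and an SD of 0.26 over the 32 members in both own thresholded lists. Members with a main summit had an SD of 0.39 (19 snRNA genes) and 0.43 (54 snoRNA genes), beside 0.45 over the 1587 other genes with a main summit. A difference in signal of less than about this size between 2 members is within the spread between replicates.

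**Figure D5:**
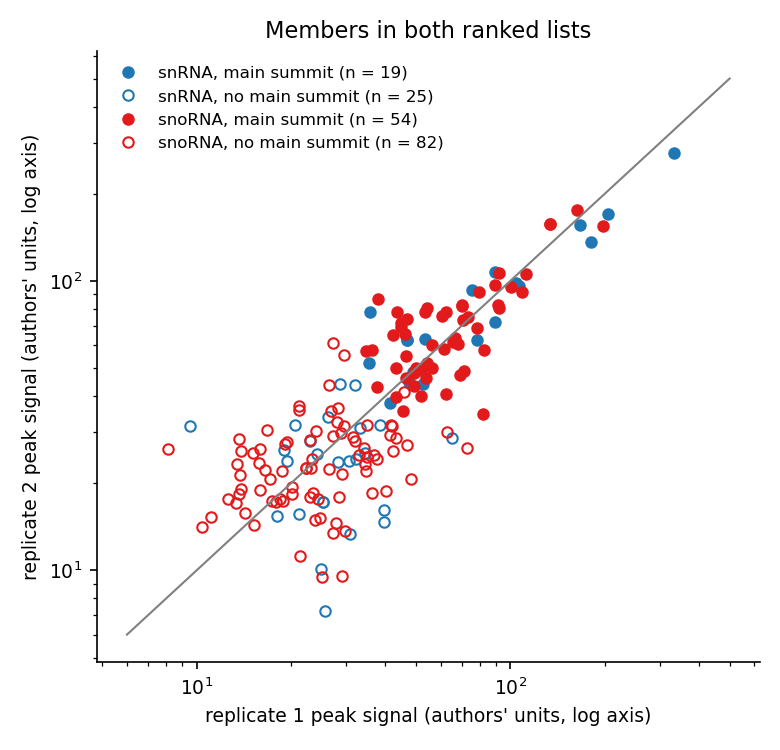
Peak signal in replicate 2 against replicate 1 for the 180 members in both ranked lists, both axes logarithmic in the authors' units, with the line of equal values. Filled points have a main summit (19 snRNA and 54 snoRNA genes) and lie towards the upper right, and open points have none (25 and 82). The main list comes from these replicates pooled, so the place of the filled points follows in part from that selection.

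Of the 398 members with no main summit, 107 were in both ranked lists and 169 in neither. The snRNA genes with the highest lower percentile over the 2 lists were F42C5.12, sls-2.10, T27E4.11, ZK897.4 and sls-2.14, with 38.5 and 31.7, 33.2 and 31.1, 31.9 and 43.6, 65.0 and 28.7, and 28.6 and 44.1 in replicates 1 and 2. The snoRNA genes were ZK546.18, K07C10.2, Y71G12B.41, T24H7.6 and C27H6.5, with replicate 1 signals of 35.0 to 62.6 and replicate 2 signals of 30.1 to 41.3. Their pooled scores, at most 818, were under the 830 that is the lowest score in the main list. By the nearest main summit, smy-1 at 199 bp, W06H8.17 at 175 bp and R166.10 at 160 bp were closest inside the distance limit. C16A3.11, F54E7.10 and R166.7 missed it at 237, 253 and 272 bp. For C02F5.15 the summit counted, the highest and not the nearest, lay 196 bp before the 5′ end.

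Protein genes that act with these RNAs were looked at through their promoters. Of 77 names listed, 64 matched a gene in the annotation. Of these 64 genes 11 had a main summit there, 17.2% (8.90% to 28.7%), beside 5.78% of all protein-coding genes. They were 3 of 15 Sm and LSm genes, 2 of 16 further spliceosomal snRNP genes, 1 of 4 assembly genes, 2 of 19 snRNA transcription genes and 3 of 10 snoRNP genes. The highest was ints-4, a subunit of the Integrator complex that trims snRNA 3′ ends, with a signal of 409 and its summit 36 bp after a start. fib-1, the box C/D methyltransferase fibrillarin, had 158, and snpc-3.4, a subunit of the snRNA-activating complex, had 91.1 with its summit 24 bp before a start. The AAA+ ATPase gene ruvb-1 had 99.4, lsm-3 110.2 and prp-31 105, while prp-8, the core spliceosome protein, had 81.2. For lsm-7 (124), nol-58 (106) and smn-1 (85.9) the summit was nearer a start of a neighbour, dnc-1, zip-4 and klp-16, and the snr-4 summit is that of C52E4.8.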

How the data were processed

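ChIP-seq peaks of eGFP-tagged K11D2.4 from 2 biological replicates were analysed from the peak lists in ce11 coordinates that the authors deposited. Per the labels, the lists come from ranking and thresholding by irreproducible discovery rate. Signal is the peak height set by the authors, and the deposited score is a whole number of at most 1000. No source used here names the aligner, the peak caller or the depth.

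Summits (start plus offset) were matched to Ensembl release 115 genes of WBcel235, and symbols came from RefSeq through WormBase identifiers, with a match for all 475 members. Families were joined with edlib 1.3.9.post1, and intervals came from scipy 1.17.1 under Python 3.11.15. Named are snRNA genes with a main summit, the 20 highest snoRNA genes, 5 genes per class with no main summit and highest in both replicates, 3 genes on each side of the distance limit, and hosts and listed protein genes. Members and lists were chosen with earlier results of these data known. With 1 group no test between conditions was possible. Matching and word search were tested on simulated data. Alternatives covered the peak list, distance, anchor, merged loci, place and flank.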

Additional observations from a re-analysis of the deposited data

How the results depend on the processing

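Across 18 results and 107 alternatives, 86 values stayed within 1.5 times the count, or within the replicate spread, of the value reported. Most of the 21 others came from using 1 replicate's own thresholded list, which holds fewer peaks. Leaving out 1 replicate in this way gave 12 to 15 snRNA and 29 to 45 snoRNA genes with a summit, 10 to 14 intronic snoRNA genes (all in hosts other than ribosomal protein genes) and 12 to 20 intergenic ones, 3 to 5 intronic and 9 to 10 intergenic snRNA genes, 7 to 13 snoRNA genes in the box class and 6 to 10 in the pair class, and 6 to 8 snRNA genes in the pair class. Median signals, on each list's own scale, were then 92.9 to 96.9 (snRNA) and 71.7 to 74.8 (snoRNA), and the median snRNA summit lay at -22 to -13.5 bp. Counting snoRNA genes inside any protein-coding gene on either strand gave 29 of 216 in place of 19 of 145. On the opposite strand of the flank 0 of 2 snoRNA genes with both boxes, 1 of 1 with the pair and 0 snRNA genes with the pair had a summit. At 500 bp 4 of the 23 snoRNA genes in ribosomal protein introns and 24 of 122 in other hosts had one. The SD of the replicate log2 ratio fell from 0.61 to 0.26 among members in both own thresholded lists. Flank classes and the intronic snRNA, SL2 and ribosomal host alternatives were added after seeing the data. No paired analysis was possible because the result comes from no test and there is 1 group. Unknown depth limits each absence.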

Other observations

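Words of 6 bases in the 100 bp before the 5′ end were also counted, on both strands. The longer patterns had been chosen after looking at flanks of genes with main summits, so their contrast is not compared with that of these words. On the gene's strand alone, the words held by the largest number of snRNA families, CACAAA and CCACAA, were each in 9 of 19 families, and TGTCGG was in 8. On both strands TGTCGG was in 8 of 20 snRNA flanks with a main summit (40%) and 34 of 109 without (31.2%), and in 13 of 57 snoRNA flanks with a main summit (22.8%) against 22 of 289 without (7.61%), beside 1.68% of protein-coding flanks. GTTCGA, a tRNA box B core, was in 13 of 57 snoRNA flanks with a main summit and 16 of 289 without, and in 0 of 20 and 3 of 109 snRNA flanks, beside 2.96% of protein-coding flanks. The shorter GGTTC was in 26 of 57 and 57 of 289 snoRNA flanks. In snRNA flanks it was in 7 of 20 and 30 of 109, beside 7.27% of protein-coding flanks. TATAAA was in 6 of 20 and 15 of 109 snRNA flanks and in 5 of 57 and 33 of 289 snoRNA flanks, where 19.3% of protein-coding flanks held it. CGCAGA was in 0 of 20 and 19 of 109 snRNA flanks and in 5 of 57 and 8 of 289 snoRNA flanks, and ACGCAG in 2 of 20, 4 of 109, 4 of 57 and 13 of 289.

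By chromosome, 6 of 13 snRNA genes on chromosome III (19.2% to 74.9%) and 6 of 16 on chromosome II (15.2% to 64.6%) had a main summit. The counts were 3 of 41 on chromosome IV (1.54% to 19.9%) and 2 of 40 on chromosome V (0.611% to 16.9%), where the SL1 copies lie. For snoRNA genes the counts were 14 of 55 on chromosome V (14.7% to 39.0%) and 2 of 33 on chromosome X (0.743% to 20.2%). The shares over all genes of each chromosome were not computed, so no difference between chromosomes is read from these counts.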
